A study of Oryza sativa Japonica Group with 28 samples.

Results

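The nucellar epidermis (NE) and the ovular vascular trace (OVT) of rice grains were compared at 8 days after flowering (DAF). The comparison used the 5 libraries labelled NE_08DAF (MM20, MM21 and MM22) and OVT_08DAF (MM21 and MM22), out of 28 libraries in 13 groups. All were untreated grains of Oryza sativa cv. Nipponbare grown in hydroponics, cut as frozen sections, captured by laser and sequenced after PCR amplification of the cDNA, with 3 grains in each preparation. The signal columns also carry the word low (NE MM20), mid (NE MM21, NE MM22 and OVT MM22) or high (OVT MM21), whose meaning the sources used here do not give. The question was which genes set apart these neighbouring maternal tissues during grain filling. The labels do not say whether preparations with different MM numbers came from different plants. The p-values therefore measure spread between libraries of a group only, pooled over all 28 libraries in 13 groups.

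In the rice grain a single vascular bundle runs along the dorsal side and is the only route by which sucrose, amino acids and minerals reach the seed. No symplastic connection leads from maternal tissue into the filial endosperm, so solutes must be exported from maternal cells into the apoplast. The nucellar epidermis is the layer of maternal cells that surrounds the endosperm, and both tissues are therefore places where transporters of sugars, phosphate and metals are of interest.

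Values are signals of each gene after the scaling of the authors, with 1 factor per library and no division by gene length, so levels are compared between libraries and not between genes. Reads estimated from the deposited signal ranged from 3163708 in OVT MM21 to 17829053 in NE MM20. In OVT MM21, 31.4% of the signal came from the 10 highest genes and 23.4% from Os08g0189100 alone, and 14945 of the 27527 genes tested were at 0, against 8375 in OVT MM22. A value of 3 reads, taken as the floor that a 0 allows, was 12.3 in OVT MM21 and 0.782 to 1.94 in the other 4 libraries, which covers counting error only. Over all tested genes OVT MM22 correlated with the NE libraries at 0.668 to 0.679 and with OVT MM21 at 0.645, on the log2 scale, while NE libraries correlated among themselves at 0.818 to 0.84. The 2 libraries labelled OVT therefore stood farther from each other than the 3 labelled NE, and the counts without each of them are given with the results.

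The labels were checked against marker lists. The 3 genes listed for nucellar epidermis made up 0.198 to 0.529% of the signal in NE and 0.0026 to 0.00336% in OVT. These are OsSWEET11, which held most of the signal in each NE library, OsMADS29 and OsPHO1;2, whose differences are given below, so this is no separate check of the NE label. The 7 genes listed for vascular tissue did not mark OVT at this stage. They held 0.0389% of the signal in OVT MM21, where 5 of the 7 were at 0, 0.0188% in OVT MM22 and 0.00534 to 0.0297% in NE, and most of the signal in OVT MM21 was that of 1 class III HD-Zip gene, Os12g0612700. OsCesA4, OsCesA7 and OsCesA9, the cellulose synthases of secondary walls that mark xylem, were at 0 in OVT MM21 and at 4.16 to 66.6 in OVT MM22. The library labels are used below as given. The 19 genes listed for endosperm, mostly storage protein and starch synthesis genes, held 0.707 to 7.54% in NE with the highest share in NE MM20, 0.107% in OVT MM21, 2.83% in OVT MM22 and 38 to 42.5% in endosperm (EN). The 5 photosynthetic pericarp genes stayed below 0.008% in all 5 libraries.

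Levels were tested with limma on log2(signal + 10), with all 13 groups sharing 1 spread per gene, and a gene was called at an adjusted p under 0.05 (Benjamini-Hochberg over all 27527 genes) and more than 2-fold. By this rule 786 genes (2.86%) were higher in NE and 1076 genes (3.91%) were higher in OVT, 1862 (6.76%) in all. At an unadjusted p under 0.05 and more than 2-fold the counts were 3066 (11.1%) and 2661 (9.67%). A difference of a gene in these pieces of tissue does not tell apart fewer cells of a type from less RNA per cell. In 780 of the 786 and 1025 of the 1076 called genes the libraries of the 2 tissues did not overlap, whereas over all genes the NE libraries lay above both OVT libraries in 5455 (19.8%) and below both in 2954 (10.7%). Among the genes called higher in NE, 510 were at 0 in OVT MM21, 212 in OVT MM22 and 189 in both. Among those called higher in OVT, 180 were at 0 in all 3 NE libraries.

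The number of calls depended on the OVT libraries and on the pooled spread. Without OVT MM21 the counts were 219 in NE and 862 in OVT, of which 172 and 462 were among the calls above, and without OVT MM22 they were 1436 and 2188. With the 5 libraries fitted alone they were 178 and 246.

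**Figure D1:**
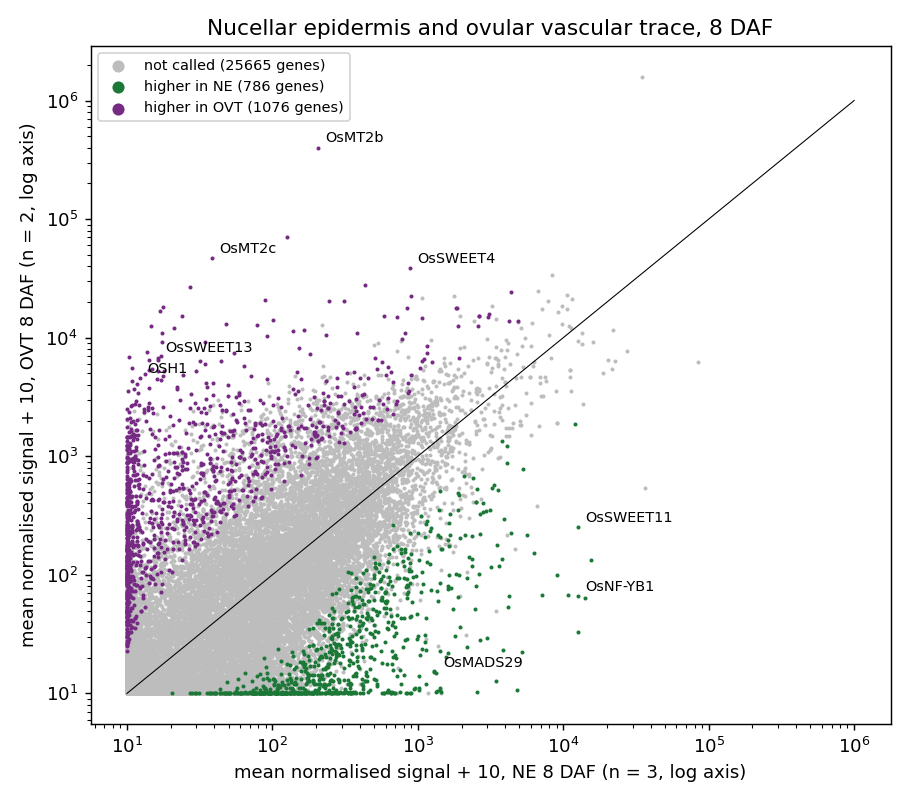
Mean normalised signal plus 10 of each tested gene in NE (x axis, n = 3) against OVT (y axis, n = 2) at 8 DAF, both on log axes, with genes called higher in NE in green and in OVT in purple. The 1076 genes higher in OVT reach far above the diagonal, up to OsMT2b, and the point at the top is Os08g0189100, which was not called.

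The genes with the largest differences were far higher in OVT. OsMT2b (Os05g0111300) and OsMT2c (Os01g0974200) encode metallothioneins, small cysteine-rich proteins that bind metals. OsMT2b had a signal of 573400 and 227700 in the OVT libraries and 47.2, 151 and 389 in NE MM20, MM21 and MM22, a log2 difference of -11.19 ± 1.11 (SE, adjusted p = 3.14e-07). OsMT2c was at 52850 and 40280 in OVT and at 4.69, 21.9 and 58.8 in NE (log2 difference -10.50 ± 0.77, adjusted p = 5.73e-09). In both genes the 2 OVT libraries lay far above all 3 NE libraries. The next were Os01g0612500, annotated with hydrolase activity, at 25030 and 28140 in OVT and 3.39 to 36.2 in NE, and Os04g0191500, with no annotation, at 21020 and 12390 in OVT and 0.261 to 18.1 in NE. Of the 15 genes with the largest difference towards OVT, 9 carry no Gene Ontology (GO) term in the deposited table, among them Os05g0390300, Os01g0155800, Os05g0130200, Os01g0642200, Os01g0777900 and Os11g0153500. The remaining annotated members were Os06g0143700 (sulfate transport), Os01g0826000 (OsATX, metal ion transport) and Os02g0629200 (water transport). All 15 remained called without either OVT library.

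These 15 genes were chosen by the size of their difference, which fixes that their share in NE is small, and the shares describe only how the NE libraries differed. Summed over the 15, NE MM20 held 0.0133%, NE MM21 0.0426% and NE MM22 0.107% of the OVT mean. NE MM20 was the lowest of the 3 NE libraries for 14 of the 15 genes and NE MM22 the highest for all 15. The same sums of the 15 genes with the largest difference towards NE were 0.33% in OVT MM21 and 0.573% in OVT MM22. None of the 15 genes higher in OVT reached 10% of its OVT mean in cross cells (CC) or EN of 8 DAF, and the median was 0.125% in CC and 0.0159% in EN.

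Primers of the study for quantitative PCR identify 3 transcripts higher in OVT, of which 2 are among the 15 genes above, and 1 transcript higher in NE. They are written from 5′ to 3′.
Os04g0191400 forward: ctgtcactggaacagcctca
Os04g0191400 reverse: gttcatctggctgttgtgga
Os05g0130600 forward: ggcgagctcacttcttgttc
Os05g0130600 reverse: acttgggcgcctttggtt
Os01g0176700 forward: cacgtctcgaggaagagagg
Os01g0176700 reverse: ccgatgttcttcaccggtat
Os09g0518200 forward: caacgacagaggggttgagt
Os09g0518200 reverse: ccatgaactccttgctcctc

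Os04g0191400 had a signal of 6783 and 11520 in OVT and 2.09 to 13.6 in NE (log2 difference -9.05, adjusted p = 2.12e-08). Os05g0130600 was at 5506 and 8616 in OVT and 1.565 to 14.9 in NE, and Os01g0176700, of the G2-like family of transcription factors, at 1737 and 1242 in OVT and 0 to 4.53 in NE. The 3 genes were called at all alternative settings, but the study picked them on these libraries, so they are no independent evidence. Of the 3 marker genes given for NE, Os09g0518200 was called higher in NE, with 42, 18.2 and 133 against 0 and 0.595 in OVT, Os07g0440900 was at 4.38 or less in all 5 libraries, and Os08g0398500 was at 0 in all 5.

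**Figure D2:**
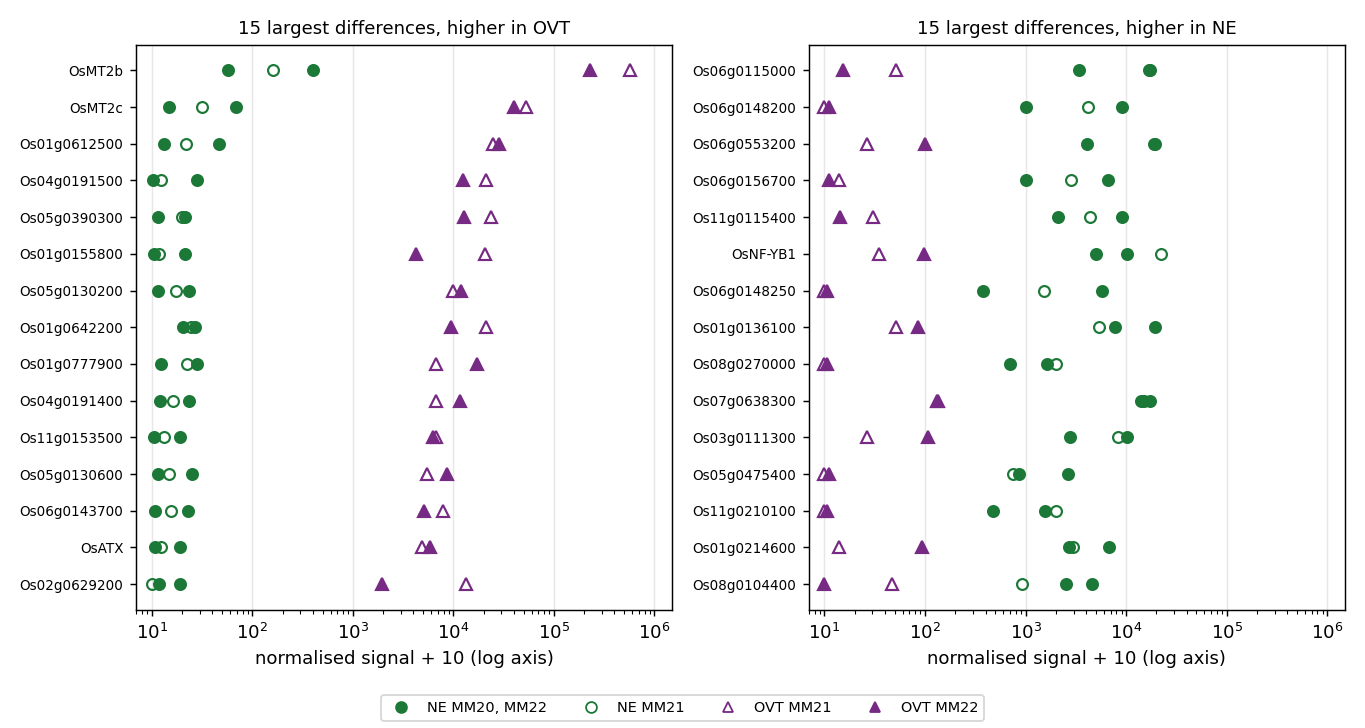
Normalised signal plus 10 (log axis) in each of the 5 libraries for the 15 genes with the largest log2 difference in each direction, with circles for NE and triangles for OVT (open symbols for MM21 of either tissue). For all 30 genes the circles and triangles do not overlap, as the rule that chose them required.

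Of the 15 genes with the largest difference towards NE, 5 carry no GO term. Os06g0115000, with no GO term, was at 3421, 17000 and 17260 in NE and at 41.1 and 5.35 in OVT (log2 difference 8.48 ± 1.31, adjusted p = 0.000147). OsNF-YB1 (Os02g0725900), a subunit of the NF-Y transcription factor family, was at 10110, 22470 and 5007 in NE and at 24.6 and 87.4 in OVT (log2 difference 7.49 ± 1.16). Os07g0638300, annotated with peroxiredoxin activity, was the most even of these 3, with 14150, 15160 and 17160 in NE and 123 and 122 in OVT. All 3 lost their call in the voom fit of estimated reads, together with 9 others of the 15 genes, while the direction was the same.

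Of the 15, 3 carry the GO term lipid metabolism and 2 lipid transport, which is no test of either term. Over all 159 genes with the term lipid metabolism 15 (9.43%) were higher in NE and 7 (4.40%) in OVT. Among all tested genes the shares were 2.86% and 3.91%. Os06g0148200, Os06g0156700 and Os01g0214600 are annotated with lipid metabolism and Os11g0115400 and Os03g0111300 with lipid transport, and all had NE levels between 996.7 and 10300. All 5 lost their call in the voom fit, and Os06g0148200, Os01g0214600 and Os03g0111300 also without OVT MM21. Os06g0148200 was at 996.7, 4124 and 9162 in NE and at 0 and 1.19 in OVT. The neighbouring locus Os06g0148250 followed the same order with 365, 1529 and 5726 in NE, and reads shared between the 2 loci cannot be told apart. Os11g0115400 and Os12g0115100 (3764, 10320 and 12880 in NE) are likewise a pair of near-identical genes on duplicated segments of chromosomes 11 and 12.

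Other genes among the 15 encode enzymes and stress proteins. OsHsp16.9A (Os01g0136100), a small heat shock protein with close copies beside it, was at 19280 in NE MM20, 5348 in MM21 and 7830 in MM22 and at 41.1 and 74.7 in OVT. Os11g0210100 has the GO term for peroxidase activity and was at 460, 1975 and 1540 in NE and at 0 and 0.595 in OVT. Os05g0475400, annotated with transaminase activity, was at 854, 745 and 2661 in NE and at 0 and 1.19 in OVT (adjusted p = 2.4e-05), and Os08g0270000 at 684, 2012 and 1609 against 0 and 0.595. The last 3 were called also in the voom fit.

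Genes called higher in NE were often present in cross cells as well. Of the 15 genes, 12 had at least 10% of their NE mean in the single CC library of 8 DAF, of 815264 estimated reads, and 524 of all 786 NE calls (66.7%) did so, 209 with a CC level above the NE mean. In EN the numbers were 2 of 15 and 457 of 786 (58.1%), with 141 above the NE mean. Aleurone (AL) was captured only at 16 DAF, and there the levels among the 15 differed widely. In AL MM17, MM18 and MM04, Os07g0638300 was at 123300, 72080 and 64730 and OsNF-YB1 at 13840, 9727 and 43320. In the same order Os06g0156700 was at 38.7, 4.82 and 425. For calls higher in OVT, 335 of 1076 (31.1%) reached 10% of the OVT mean in CC and 182 (16.9%) in EN. The part of the endosperm signal of NE MM20 in these levels was not tested, and without NE MM20 the counts were 736 in NE and 747 in OVT.

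Transcription factors of the meristem and of the ovule were next considered. Over 20 lists of regulators, transporters, hormone and cell wall genes, 7 of 197 tested genes (3.55%) were higher in NE and 46 (23.4%) in OVT, with a median log2 difference of -0.659 against 0.138 over all tested genes. Among all tested genes 3.91% were called higher in OVT. The lists were drawn up with earlier results of these data known, so these shares are a description.

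**Figure D3:**
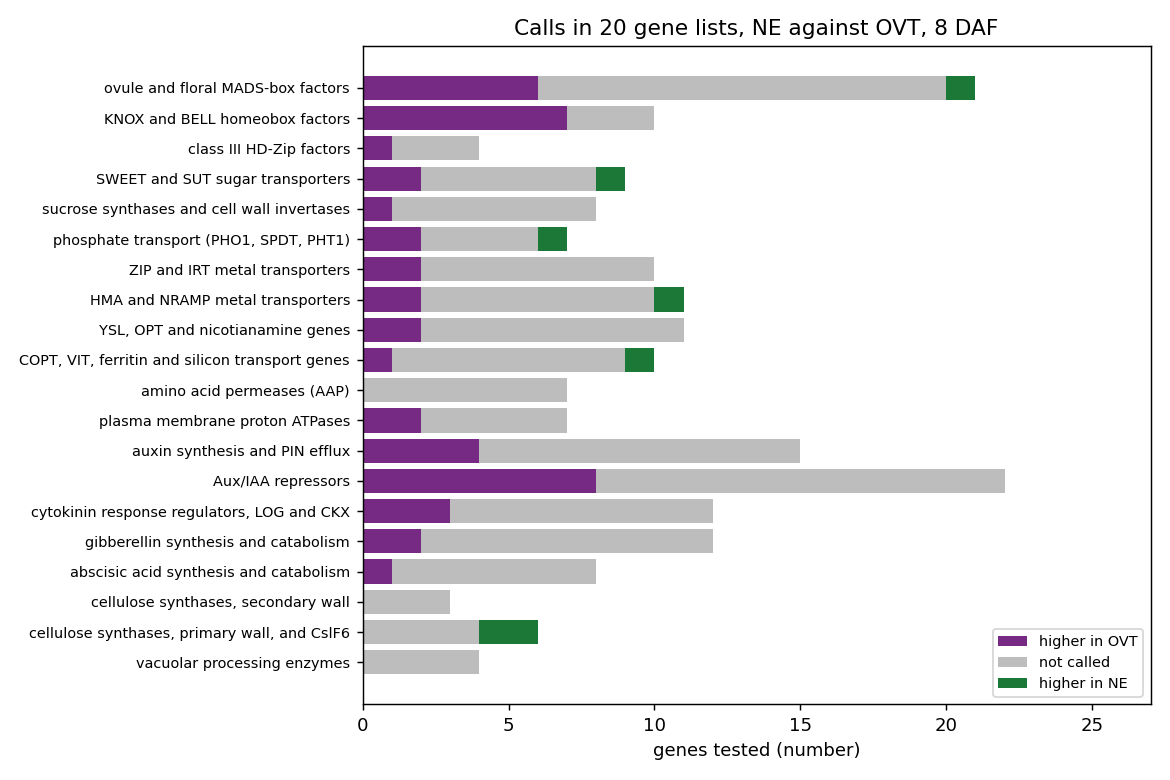
Number of tested genes in each of 20 lists, split into genes called higher in OVT (purple), not called (grey) and called higher in NE (green). The KNOX and BELL list had 7 of 10 genes higher in OVT, and primary wall cellulose synthases were the only list with calls in NE and none in OVT.

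KNOX and BELL homeobox factors, which work as partners in keeping meristem cells undifferentiated and in vascular and organ boundaries, were higher in OVT in 7 of 10 cases and in NE in none (median log2 difference -3.21). OSH1 (Os03g0727000), the KNOX gene of the shoot meristem, was at 3075 and 6043 in OVT and at 0, 3.13 and 3.88 in NE (log2 difference -8.47 ± 0.63, adjusted p = 5.73e-09). OSH71 (Os05g0129700) was at 300 and 143 in OVT and at 0 in all NE libraries, at least 144-fold higher against a floor of 3 reads per library. Ratios of this kind, here and below, divide the OVT mean by the mean NE floor, so a single OVT library can lie lower. OSH3 (Os03g0727200) was at 115 and 71.4 against 0, at least 60.8-fold higher. OSH6 (Os01g0302500), OSH15 (Os07g0129700) and the list members Os05g0455200 and Os08g0292900 were also called, with OVT levels of 32.9 to 458 and NE levels of 0 to 11.3. OSH15 was not called without OVT MM22, and Os08g0292900 not without OVT MM21, NE MM20 or NE MM22, nor in the voom fit.

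MADS-box factors specify floral organs and the ovule, and 6 of 21 were higher in OVT and 1 in NE (median log2 difference -3.26). OsMADS29 (Os02g0170300), which in rice drives the degeneration of nucellar cells, was the gene higher in NE, with 393, 1145 and 2427 against 8.62 and 1.19 in OVT (log2 difference 6.18 ± 1.27, adjusted p = 0.00318), and was not called in the voom fit or with the 5 libraries alone. The ovule identity gene OsMADS13 (Os12g0207000) was at 2435 and 4239 in OVT and at 1.3, 34.5 and 17.5 in NE (log2 difference -7.07 ± 0.97). OsMADS6 (Os02g0682200), an AGL6-type gene, had 5953 and 3769 in OVT against 3.39 to 28.8 in NE, and OsMADS1 (Os03g0215400), a SEPALLATA-type gene, 5342 and 2757 against 0.647 to 3.13. Each separated the tissues without overlap, and OsMADS6 and OsMADS1 were called at all alternative settings. OsMADS16 (Os06g0712700) and OsMADS15 (Os07g0108900) were lower, at 73.9 to 296 in OVT and 0 to 14.9 in NE. OsMADS7 (Os08g0531700), at 24470 and 5296 in OVT and 283 to 1054 in NE, was at adjusted p = 0.0476. Its call was lost without any 1 of NE MM20, MM21, MM22 or OVT MM21 and in the voom fit.

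Families that the study listed as differentially expressed in these libraries are not independent of them, and their counts follow as a description. Of 467 tested factors in all families, 33 were higher in NE and 90 in OVT. The families with calls in OVT and none in NE included DOF with 5 of 11 genes, ARF with 5 of 15 and TALE, which holds KNOX and BELL, with 8 of 15. The DOF gene Os07g0508900 was at 554 and 472 in OVT and at 0.261, 0 and 0 in NE. The ARF gene Os02g0141100, of the auxin response factors, was at 292 and 465 in OVT and 0.647 or less in NE. NF-Y went the other way, with 5 of 14 genes higher in NE and 0 in OVT. Beside OsNF-YB1 these were Os03g0174900, Os03g0411100, Os06g0285200 and Os07g0608200, of which Os03g0174900 followed the endosperm marker share within NE, with 3901 in MM20, 723 in MM21 and 224 in MM22, and had a mean of 3540 in EN. It was not called without NE MM20, NE MM21 or OVT MM21. Os06g0285200 lost its call without NE MM21, NE MM22 or either OVT library and Os07g0608200 without OVT MM22, and in the voom fit OsNF-YB1, Os03g0174900, Os03g0411100 and Os07g0608200 were not called. The HD-ZIP gene Os08g0136100 was at 297, 980 and 1350 in NE and at 0 in both OVT libraries. The G2-like pair Os11g0106100 and Os12g0105600 was at 195 to 564 in NE and 5.35 or less in OVT, and Os12g0105600 was not called without OVT MM21. The class III HD-Zip gene Os12g0612700 was at 5034 in OVT MM21 and 51.2 in OVT MM22 against 10.2 to 27.8 in NE. It was not called when OVT MM21 or any 1 NE library was left out, nor in the voom fit.

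**Figure D4:**
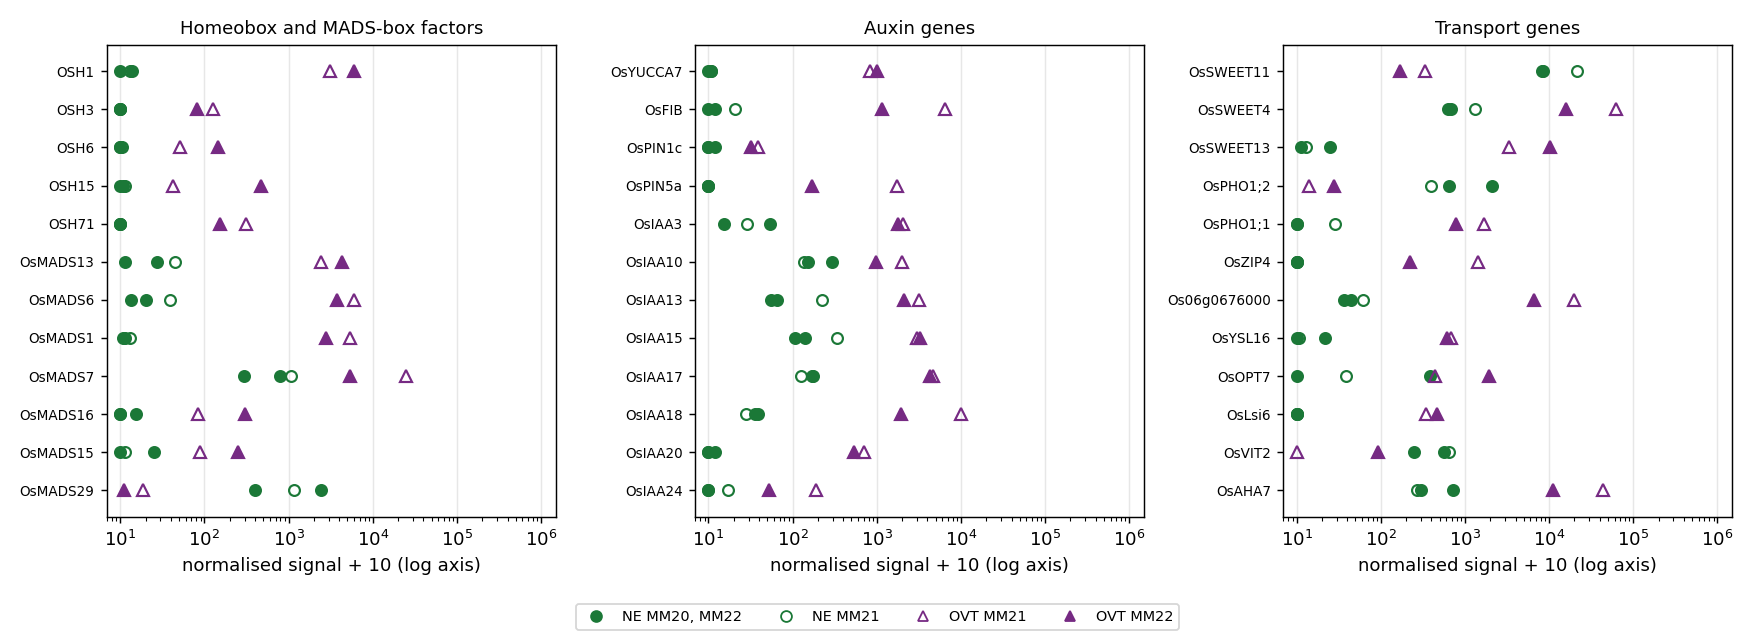
Normalised signal plus 10 (log axis) per library for homeobox and MADS-box genes, auxin genes and transport genes, with circles for NE and triangles for OVT (open symbols for MM21 of either tissue). OsMADS29, OsSWEET11, OsPHO1;2 and OsVIT2 have their circles at right, and the other genes have their triangles at right.

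Among auxin genes the calls were in OVT. In rice auxin is made from indole pyruvate by TAA-type aminotransferases and YUCCA monooxygenases, is moved out of cells by PIN proteins, and acts through Aux/IAA repressors that are themselves induced by it. For synthesis and efflux 4 of 15 genes were higher in OVT and 0 in NE, with a median log2 difference of -0.389. OsYUCCA7 (Os04g0128900) was at 821 and 999.9 in OVT and at 0.647 or less in NE (log2 difference -6.46 ± 0.69, adjusted p = 8.35e-07). OsFIB (Os01g0169800), the TAA-type aminotransferase, was at 6372 and 1149 in OVT and at 0, 10.7 and 1.94 in NE. OsPIN5a (Os01g0919800) was at 1753 and 159 against 0 in all 3 NE libraries, with an OVT mean at least 623-fold higher. OsPIN1c (Os06g0232300) was at 28.7 and 22 in OVT and was not called without NE MM21 or OVT MM21.

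Of 22 Aux/IAA repressors, 8 were higher in OVT and 0 in NE, and the median log2 difference was -1.83. OsIAA17 (Os05g0230700) was at 4623 and 4242 in OVT and at 161, 117 and 164 in NE (log2 difference -4.83 ± 0.85, adjusted p = 0.000673). OsIAA20 (Os06g0166500) was at 694 and 529 in OVT and at 0, 0 and 1.94 in NE. The repressors OsIAA3 (Os01g0231000), OsIAA10 (Os02g0817600), OsIAA13 (Os03g0742900), OsIAA15 (Os05g0178600) and OsIAA18 (Os05g0523300) were between 978 and 9977 in OVT and between 5.48 and 326 in NE. OsIAA24 (Os07g0182400), at 181 and 42.8 in OVT, was at adjusted p = 0.0455 and lost its call without OVT MM21 or any NE library. OsIAA10 was not called without NE MM21 or OVT MM21, nor OsIAA13 without OVT MM21. OsIAA17 and OsIAA20 were called at all alternative settings.

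In the short lists for 3 other hormones the calls were in OVT. The longer hormone lists of the study, chosen on these libraries, also held calls in NE. Of 61 abscisic acid genes 3 were higher in NE and 6 in OVT, and of 33 gibberellin genes 2 and 3. For ethylene the counts were 4 and 5 of 34, and for brassinosteroid 1 and 4 of 29. Over all tested genes 2.86% were higher in NE and 3.91% in OVT, and counts this small are a description. For cytokinin, 3 of 12 genes were called, the type A response regulators OsRR2 (Os02g0557800), OsRR9 (Os11g0143300) and OsRR10 (Os12g0139400), which damp cytokinin signalling. OsRR2 was at 90.3 and 228 in OVT and at 0.626 or less in NE. OsRR9 lost its call without OVT MM21 or any NE library and in the voom fit, and OsRR10 without any 1 of the 5 libraries. For gibberellin 2 of 12 were called, among them OsCPS1 (Os02g0278700), the synthase of the first committed step, at 57.5 and 114 in OVT and 0 in NE, at least 56.0-fold higher, which was not called without OVT MM22. For abscisic acid 1 of 8 was called, OsABA8ox1 (Os02g0703600), a hydroxylase that inactivates the hormone. It was at 571 and 76.1 in OVT and at 0 in NE. The OVT mean was at least 211-fold higher, and the fitted log2 difference was -4.48.

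Sugar transport genes differed in both directions. Of 9 SWEET and SUT genes, 1 was higher in NE and 2 in OVT. SWEET proteins let sugars leave cells down their gradient, and OsSWEET11 (Os08g0535200) was at 8171, 21310 and 8491 in NE and at 324 and 158 in OVT (log2 difference 5.59 ± 1.21, adjusted p = 0.0053). OsSWEET4 (Os02g0301100) was at 61570 and 15870 in OVT and at 678, 1325 and 617 in NE (log2 difference -5.23 ± 1.06). OsSWEET13 (Os12g0476200) was at 3305 and 10260 in OVT and at 1.3, 3.13 and 14.9 in NE (log2 difference -8.56 ± 0.71, adjusted p = 2.42e-08). OsSWEET13 was called at all alternative settings. With the 5 libraries alone neither OsSWEET11 nor OsSWEET4 was called. OsSWEET11 also lost its call in the voom fit, and OsSWEET4 without OVT MM21. The sucrose synthase gene OsSUS2 (Os06g0194900), whose product cleaves sucrose, was at 10870 and 19450 in OVT and 330 to 881 in NE and had a mean of 36450 in EN. It was the one gene called of 8 sucrose synthases and cell wall invertases and lost its call without NE MM20 or either OVT library. The cell wall invertase GIF1 (Os04g0413500), needed for unloading of sucrose, was at 65.7 and 109.5 in OVT and 0.626 or less in NE and did not pass (adjusted p = 0.131), but was called with a pseudocount of 1, in the voom fit and with the 5 libraries alone.

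Phosphate genes of the PHO1 type, which export phosphate from cells, were split between the tissues. OsPHO1;2 (Os02g0809800) was at 629, 385 and 2087 in NE and at 4.11 and 17.9 in OVT (log2 difference 5.35 ± 1.59, adjusted p = 0.0425), and OsPHO1;1 (Os01g0110100) was at 1687 and 765 in OVT and at 0, 18.8 and 0 in NE (log2 difference -6.33 ± 0.62, adjusted p = 2.69e-07). The call of OsPHO1;2 was lost when any 1 of the 5 libraries was left out and in the voom fit. Os06g0143700, named above, carries the GO term sulfate transport but was listed here with the phosphate transport genes. Its signal was 7916 and 5118 in OVT and 0.798, 5.71 and 12.9 in NE, and its reads overlap with those of Os06g0143750.

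Metal transport genes were called mainly in OVT. Of the 66 genes in the GO list metal ion transport, 11 (16.7%) were higher in OVT and 2 (3.03%) in NE. Over all tested genes the shares were 3.91% and 2.86%, so the NE share was near that of all genes. Within the ZIP and IRT family of zinc and iron importers 2 of 10 were called. OsZIP4 (Os08g0207500), a zinc transporter, was at 1404 and 214 in OVT and 0.261 or less in NE and was not called without OVT MM21. OsZIP8 (Os07g0232800) was at 0 in OVT MM21 and 131 in OVT MM22, so its libraries overlapped and its difference rested on OVT MM22. The call of OsZIP8 was lost without OVT MM22 or any 1 NE library. Os06g0676000, a metal transporter for which the sources give different names, was at 19600 and 6621 in OVT and at 34.7, 52 and 26.5 in NE (log2 difference -7.94 ± 0.96, adjusted p = 5.48e-06). OsYSL16 (Os04g0542800), a transporter of metal chelates, was at 678 and 604 in OVT and at 0.261, 0.626 and 11.6 in NE. OsOPT7 (Os03g0751100), of the oligopeptide transporter family, was at 431 and 1936 in OVT and 0.261, 28.2 and 372 in NE, with NE MM22 just below OVT MM21. The call of OsOPT7 was lost without NE MM20, NE MM21 or OVT MM22. OsNRAMP2 (Os03g0208500), at 534 and 880 in OVT and 34.2 to 93.1 in NE, lost its call when any 1 of the 5 libraries was left out. The silicon transporter OsLsi6 (Os06g0228200) was at 337 and 461 in OVT and 0 in NE, at least 260-fold higher.

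From the metal lists, OsHMA5 (Os04g0556000), a copper-transporting ATPase, and OsVIT2 (Os09g0396900), an iron transporter of the vacuolar membrane, were called in NE. Os08g0405700 and 2 genes that the study lists under ferritin were called too. That family heading is the study's, and what these 2 genes encode was not checked here. The genes Os11g0106700 and Os12g0106000, entered as ferritin in the lists used here, were not called. They were at 1.88 to 73.4 in NE and at 0 to 53.4 in OVT. OsVIT2 was at 241, 644 and 555 in NE and at 0 and 83.9 in OVT (log2 difference 3.89 ± 0.93, adjusted p = 0.0113), and OsHMA5 at 149, 157 and 475 against 20.5 and 4.76. Os08g0405700 was at 216, 862 and 931 in NE and 12.3 and 8.33 in OVT. Os01g0919900, was at 3699, 3439 and 3514 in NE and 493 and 519 in OVT, a log2 difference of 2.79 ± 0.60 that was called at all alternative settings, and Os01g0508100 was at 135 to 173 in NE and 4.11 and 6.54 in OVT but lost its call without NE MM22 or OVT MM21. OsVIT2 lost its call without OVT MM21, and OsHMA5 without NE MM21, NE MM22 or either OVT library. OsVIT2, OsHMA5, Os08g0405700 and Os01g0508100 were not called in the voom fit.

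Proton pumps energise such transport. OsAHA7 (Os04g0656100), a plasma membrane proton ATPase, was at 43870 and 11260 in OVT and at 295, 262 and 714 in NE (log2 difference -5.83 ± 0.92, adjusted p = 0.000189), and was 1 of 2 called in OVT among 7 genes, with 0 in NE. Of 7 amino acid permeases 0 were called by limma, 5 had an unadjusted p under 0.05 and 2 were called in the voom fit. The directions were mixed. NE libraries lay above both OVT libraries in 3 of the 7 and below both in 1, beside 19.8% and 10.7% of all tested genes. In OVT MM21, 6 of the 7 were at 0.

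Some cell wall and lipid genes were called in NE, beside 2.86% of all tested genes higher in NE and 3.91% in OVT. By GO term, 2 of 40 pectinesterase genes were higher in NE and 1 in OVT. For polygalacturonase 1 of 25 was higher in NE and 0 in OVT, and of 16 xyloglucan transferase genes 0 were called. Of 6 genes for primary wall synthesis 2 were higher in NE and 0 in OVT (median log2 difference 1.97), namely OsCesA1 (Os05g0176100) at 968, 1475 and 1683 against 189 and 228, and OsCesA6 (Os07g0252400) at 685, 262 and 652 against 185 and 7.14. Both lost their call in the voom fit, OsCesA1 also without OVT MM21, and OsCesA6 without NE MM20, NE MM22 or OVT MM22. Of the 3 secondary wall genes 0 were called, 1 was at an unadjusted p under 0.05 and 1 was called in the voom fit. Of 58 genes with the GO term fatty acid biosynthesis 8 were higher in NE and 0 in OVT (median log2 difference 0.531). Among these Os10g0472900 was at 52.4, 376 and 906 in NE and at 0 and 0.595 in OVT. Os03g0856300 was at 286, 440 and 382 in NE and at 0 and 20.2 in OVT. Both lost their call with the 5 libraries alone, and Os03g0856300 also without OVT MM21. For lipid transport 5 of 52 were higher in NE and 3 in OVT, the latter led by Os05g0550300 at 2661 and 1049 in OVT and 3.65 or less in NE.

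The same contrast at 4 DAF used 6 other libraries, so the stages share none. At 4 DAF 842 genes (3.06%) were higher in NE and 1234 (4.48%) in OVT. Of the genes called at 8 DAF, 208 of the NE calls (26.5%, and 24.7% of those at 4 DAF) and 528 of the OVT calls (49.1%, and 42.8%) were called in the same direction at 4 DAF, 1 and 2 in the opposite direction. The direction alone was the same for 687 of 786 and 945 of 1076. OSH1, OsSWEET13, OsYUCCA7 and Os06g0143700 differed by -8.65, -9.69, -6.50 and -8.58 on the log2 scale at 4 DAF, and none of them passed the test of a difference between the stages (lowest adjusted p = 0.743, OsSWEET13).

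A difference between the 2 stages passed an adjusted p of 0.05 for 70 genes (0.254%), 35 in each direction. In 34 of the 35 genes that moved towards OVT the OVT mean was higher at 8 than at 4 DAF, and in 34 of the 35 that moved towards NE it was lower. The OVT values of both stages entered the test that chose these genes, so these counts are only a description. OsLsi6 was at 0 in all NE libraries of both stages and, in OVT, at 0, 4.93 and 59.1 at 4 DAF and at 337 and 461 at 8 DAF (difference -4.21 on the log2 scale, adjusted p = 0.00777). OsABA8ox1 was at 0 to 4.11 in OVT at 4 DAF and at 571 and 76.1 at 8 DAF (difference -4.54, adjusted p = 0.0363). The G2-like gene Os03g0325500 was at 3.21 or less in OVT at 4 DAF and at 780 and 128 at 8 DAF, and Os02g0770800, annotated with nitrate assimilation, at 0 in all 6 libraries of 4 DAF and at 152 and 47.6 in OVT at 8 DAF. In each of these genes both OVT libraries of 8 DAF lay above all 3 of 4 DAF.

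Others were high in OVT at 4 DAF and low at 8 DAF. The amino acid permease gene Os05g0424000 was at 3595, 3812 and 3066 in OVT at 4 DAF and at 0 and 296 at 8 DAF (difference 5.84, adjusted p = 0.0216), and Os05g0424100, with no name here, was at 2140, 1050 and 1245 at 4 DAF and at 0 and 26.2 at 8 DAF (adjusted p = 8.07e-05). Os12g0181500, listed by the study as an amino acid transporter, was at 1422 to 2032 in OVT at 4 DAF and at 172 and 71.4 at 8 DAF. Os01g0842500 and Os03g0273200, annotated with lignin breakdown and copper binding as laccases are, were at 109 to 694 in OVT at 4 DAF. At 8 DAF Os01g0842500 was at 0 in both OVT libraries and Os03g0273200 at 0 and 38.1. In 29 of the 35 genes that moved towards NE, OVT MM21 was at 0, and without OVT MM21 212 genes passed, 45 of them among the 70, while without OVT MM22 1260 passed, all 70 among them. Except for the list members, the genes of this comparison were named after their values were seen.

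**Figure D5:**
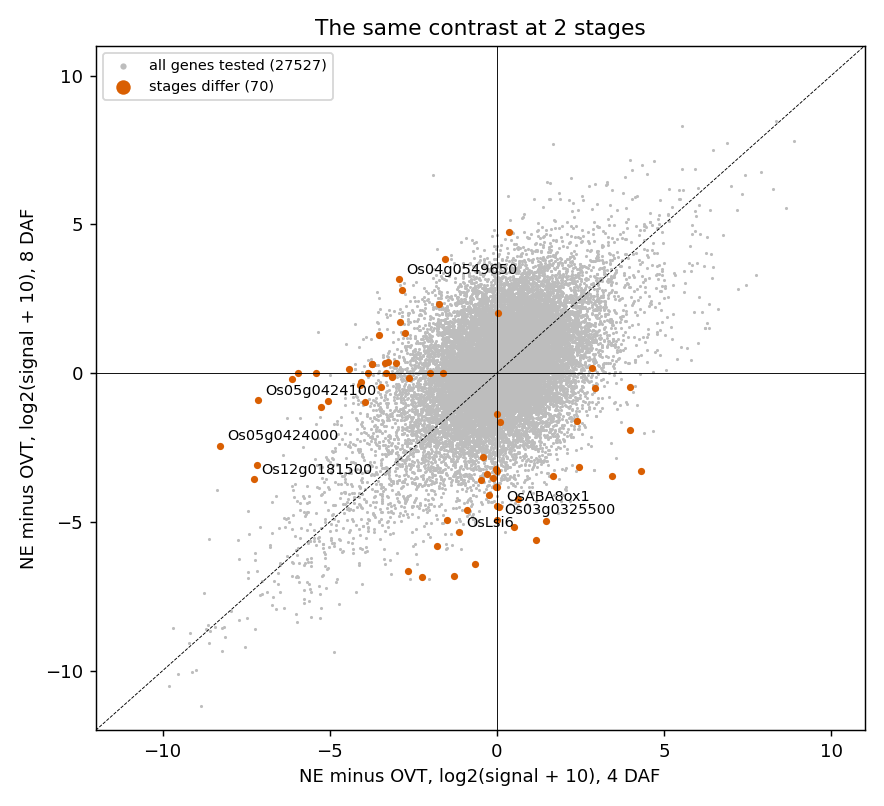
NE minus OVT difference of log2(signal + 10) of each tested gene at 4 DAF (x axis) and at 8 DAF (y axis), with the 70 genes for which the stages differed in orange and the dashed line marking equal values. The orange points lie off the dashed line on both sides, with OsLsi6, OsABA8ox1 and Os03g0325500 below it and the Os05g0424000 and Os05g0424100 pair above it.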

How the data were processed

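Laser-captured tissue was amplified, sequenced single end and aligned with STAR to IRGSP-1.0, and the authors counted genes and used edgeR. The deposited signal is the reads of a gene times 1 factor per library, not whole counts, so limma 3.58.1 in R 4.3.3 was used on log2(signal + 10). A gene entered the test if some library held it at more than 10 in signal and at 10 or more estimated reads, which left 27527 of 45990 genes. The fit had 13 group means (15 residual degrees of freedom) and a robust prior with trend. Of 29 signal columns, 1 matched no sample and was not used. Named genes were the 15 largest called differences in each direction without overlap and with a mean of at least 100, called list members and primer targets. Genes are called by RAP identifiers, with a name only where the study pairs it or RefSeq lists the symbol on that chromosome. The treatment of reads that map to several genes is not given in the sources used here. The deposited length and the deposited fraction of G and C of each transcript were not used. Copies from PCR carried no molecular tags. The members and lists were chosen with earlier results of these data known. A cross cell library titled 4 DAF but labelled 8 DAF was taken as 4 DAF. The code was tested on simulated data. Alternatives covered the pseudocount, filter, scaling, voom, a replicate block and each left-out library.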

Additional observations from a re-analysis of the deposited data

Results flagged for a closer look

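The NE minus OVT difference changed between 4 and 8 DAF, by the limma test of that change adjusted over all tested genes, for 9 genes named in the report. Towards OVT at 8 DAF the change on the log2 scale was -4.21 for OsLsi6 (Os06g0228200), -4.54 for OsABA8ox1 (Os02g0703600), -4.92 for Os03g0325500 and -3.27 for Os02g0770800. Towards NE it was 5.84 for Os05g0424000, 6.25 for Os05g0424100, 3.70 for Os12g0181500, 3.86 for Os01g0842500 and 4.13 for Os03g0273200. OVT MM21 was at 0 at 8 DAF for 4 of the 5 genes that moved towards NE, Os12g0181500 being the exception, and the part of its depth in these changes was not tested.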

How the results depend on the processing

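The counts of 786 genes higher in NE and 1076 in OVT became 1183 in NE with a pseudocount of 1, 178 and 246 with the 5 libraries alone, 454 in NE with voom, and 3066 and 2661 at an unadjusted p. Leaving out 1 library gave 219 to 1436 in NE and 719 to 2188 in OVT. In the 20 lists the 7 genes higher in NE became 4 with a pseudocount of 30 or with no filter, 1 with the 5 libraries alone or with voom, which in either fit was 0 of the 7, and 3 to 10 without 1 library, and the 46 in OVT became 20 with the 5 libraries alone. In the GO lists, 80 in NE became 12 with the 5 libraries alone, 38 with voom and 26 to 161 without 1 library, and 156 in OVT became 34 with the 5 libraries alone and 110 to 273 without 1 library. Of the 30 largest differences 17 were called with the 5 libraries alone and 18 with voom. The 70 genes with a stage difference became 20 with a pseudocount of 1 and 34 to 1260 without 1 library. Of 102 called genes named here, 35 were called at every setting and 101 kept their sign. The exception was OsZIP8 (Os07g0232800), between -3.79 and 0.0292 on the log2 scale without 1 library, and the uncalled Os05g0424000 and Os05g0424100 ranged from -4.91 and -1.83 to 0.0292. The median over all genes was 0.138 as deposited, 0.162 with median-of-ratios factors, 0.107 with upper-quartile factors and 0.000965 with voom.

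MM21 and MM22 occur in both tissues, but the sources do not say what the numbers share, and their deviations correlated at -0.0323 over 27527 genes. With the replicate block 610 genes were higher in NE, 816 in OVT, and 30 differed between stages. An edgeR fit was not run because the values are not counts, and promoter motifs were not searched because no promoter sequences were used here. A value of 3 reads was 12.3 in OVT MM21, the highest of the 5 libraries.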

Other observations

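Over 231 GO terms with at least 20 tested genes, read after the values were seen and with no test of the terms, proton transport coupled to ATP hydrolysis had 7 of 30 genes higher in OVT and 0 in NE, beside 3.91% and 2.86% of all genes. The related term for the rotational proton-transporting ATPase activity had 1 of 20 higher in OVT. The largest log2 difference among the 7 was that of Os11g0169900, at 320, 527 and 826 in NE and at 8940 and 3592 in OVT (log2 difference -3.42). Isoprenoid biosynthesis had 4 of 22 genes higher in NE and 0 in OVT, among them Os01g0703400, at 2433, 1716 and 2949 in NE and at 135.5 and 116.6 in OVT (log2 difference 4.10).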
